A study of Mus musculus with 20 samples.

Results

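Integrins and laminins were followed through peaks of 5-formylcytosine (5fC) called in 4 dissected tissues of mouse embryos at E11.5, namely hindbrain, heart, liver and carcass. Members were the protein-coding genes of the NCBIM37 (mm9) annotation whose symbols are Itga or Itgb with a number or letter, or Lama, Lamb or Lamc with a number, which gave 38 of 22367 protein-coding genes. They comprise 27 integrin genes and 11 laminin genes, and each was measured over a window of its gene body plus 1 kb on either side. Embryos were WT or Tdg null littermates from crosses of heterozygotes. In the Tdg null allele a neomycin-resistance cassette replaces the part of the gene that encodes the catalytic domain of thymine DNA glycosylase (TDG), and homozygous embryos carry it in all tissues. Hindbrain came from 4 WT and 4 Tdg null embryos of litters A, O, Q and Z. Heart, liver and carcass (the rest of the dissected body) came from 2 WT and 2 Tdg null embryos of 2 further litters, labelled pair_a and pair_b, so that these 3 tissues of a litter share their embryos.

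Integrins are receptors on the cell surface made of an alpha and a beta subunit, and they couple the extracellular matrix to the actin cytoskeleton at focal adhesions. Laminins are secreted trimers of an alpha, a beta and a gamma chain that polymerise into the basement membrane, where several integrins bind them. 5fC is made when TET enzymes oxidise methylated cytosine, and TDG excises it, so a tissue without active TDG keeps formylated sites that would otherwise be repaired.

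Across the 20 libraries, Tdg null samples held 101344 to 254319 peaks and WT samples 1563 to 42013, apart from the Tdg null liver of pair_b. That library held 228 peaks, had no peak in any member and was set aside. The files give peak positions without reads, heights or scores, so the depth behind each peak is unknown and the numbers of peaks stand in for it. A gene's value is the percent of its window under peaks, and relative coverage is the percent over members divided by the percent over all protein-coding windows of the same library. The window of Tdg itself was at 0 in 7 of 10 WT libraries and reached 14.1% in a Tdg null heart, which does not check the deletion because a peak reports formylated DNA around the allele. The files hold no expression, so the labelled tissues could not be checked against marker genes.

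Taken as one region of DNA, the members had a larger share of bases under 5fC peaks than protein-coding genes as a whole in all 9 Tdg null libraries used and in 9 of 10 WT libraries, the exception being the WT hindbrain of litter O. In Tdg null hindbrain the 38 windows held 283, 247, 309 and 282 peaks, given in the order of litters A, O, Q and Z, with 5.86 ± 0.813% (SD, n = 4) of their bases under peaks, beside 4.42 ± 0.588% over all genes. In Tdg null heart they held 716 and 392 peaks with 18.1 and 8.71% covered, in Tdg null carcass 399 and 523 peaks with 9.85 and 14.1% covered, and in the single Tdg null liver 283 peaks with 6.54% covered. WT hindbrains held 5, 16, 46 and 6 peaks in members, WT hearts 14 and 17, WT carcasses 98 and 71, and WT livers 41 and 5. Within each tissue every Tdg null library that was used lay above every WT library. These are bulk tissues, so a larger share of cells with a formylated site and more 5fC per cell cannot be told apart.

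Scaled to all genes of its own library, coverage of the members was 1.395 ± 0.0835 (SD, n = 9) in Tdg null libraries, with a range from 1.25 to 1.497. The group values were 1.33 ± 0.0553 in hindbrain, 1.487 and 1.482 in heart, 1.367 and 1.413 in carcass and 1.497 in liver. In the 10 WT libraries the mean was 1.56 ± 0.456, with a range from 0.955 in a hindbrain to 2.51 in another hindbrain that held only 6 peaks in members. The members' genes are long, with a median of 63.1 kb against 15.4 kb over all genes. Set against the whole genome, the Tdg null value rose to 1.94, and without the 3 longest members it was 1.53.

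The pooled level of all protein-coding windows averaged 6.37% over the 9 Tdg null libraries, and 23 of the 38 members had a mean above it and 15 did not. The median member was 5.52% covered in Tdg null hindbrain against 2.10% for the median gene, 13.8% against 4.62% in heart, 8.88% against 2.83% in carcass and 4.86% against 0 in liver. A peak lay in 37 of 38 members in Tdg null hindbrain, where 69.5% of all genes had one, and in 33 of 38 in Tdg null liver, where 48.3% did. The members' windows are longer than those of most genes and can more easily hold a peak, and these shares are not matched for length. All 38 members had a peak in at least 1 of the 9 Tdg null libraries, 29 had one in all 9, and 11 had none in any WT library. By mean coverage over the 9 Tdg null libraries, 33 members lay above the median gene and 7 above the 90th percentile of all genes. Across genes, coverage rose with length, with a Spearman correlation of 0.209 over the 38 members and 0.318 over all genes, which is a description since these points share their libraries.

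Laminin beta and gamma chains headed the family. Lamb1 (chr12:31950099-32014509, plus strand) encodes the beta chain of most embryonic laminins and had the highest mean, 21.5% over the 9 Tdg null libraries. It was 12.65, 7.53, 11.3 and 9.64% covered in the 4 Tdg null hindbrains, 49.7 and 31.0% in the hearts, 21.7 and 30.7% in the carcasses and 18.97% in the liver. Its WT values ranged from 0 to 0.904% with a peak in 4 of 10 libraries, so both hearts stood above every other Tdg null library for this gene. Lamc1 (chr1:155066052-155179916, minus strand), the gamma chain that most laminins share, averaged 19.6%. It was 11.05, 8.11, 11.1 and 11.7% covered in the Tdg null hindbrains, 48.2 and 26.2% in the hearts, 17.97 and 21.3% in the carcasses and 20.6% in the liver, with WT values from 0 to 1.99%. By tissue mean of this unscaled percent the hearts came first and the hindbrains last in both genes. Relative to all genes of the library, Lamc1 stood at 4.72 in the liver against 3.955 and 4.45 in the hearts. Its means on that scale were 2.37 in hindbrain and 2.315 in carcass. Lamb1 stood at 4.34 in the liver against 4.08 and 5.28 in the hearts.

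The other laminin genes were spread widely. Lamb2, the beta chain of the neuromuscular junction and the kidney glomerulus, averaged 15.2% with no WT peak, and its short window of 12669 bp also holds Usp19, so its peaks cannot be given to a single gene. Lamb3 of laminin-332 averaged 10.1% with no WT peak either, and Lamc3 averaged 10.01%. Among the alpha chains, which carry the domains that integrins bind, Lama1 of the early embryonic basement membrane averaged 10.4%, the widely expressed Lama5 8.24%, Lama4 of blood vessels 7.10% and the epithelial Lama3 5.03%. Lama2, the chain of muscle and peripheral nerve and the longest member at 635.7 kb, averaged 2.38%, yet 8 of 10 WT libraries had a peak somewhere in it. Lama1 was the only member with a peak in all 10 WT libraries.

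Of the integrins, 3 stood near the top laminins. Itgb5 (chr16:33829751-33949239, plus strand) encodes a beta partner of alpha-v and averaged 19.5%. It was 10.6, 11.0, 10.6 and 9.71% covered in the Tdg null hindbrains, 37.3 and 25.5% in the hearts, 19.01 and 31.9% in the carcasses and 20% in the liver, with WT values from 0 to 2.96%. Itga9 (chr9:118515808-118810121, plus strand), a receptor subunit for tenascin and other matrix ligands, averaged 19.1%. It was 13.2, 10.3, 14.5 and 12.7% covered in the hindbrains, 34.4 and 11.9% in the hearts, 23.2 and 33.5% in the carcasses and 18.02% in the liver, with WT values from 0 to 6.18%. Unlike the laminin chains above, its heart of pair_b lay within the range of the hindbrains. Itga6 (chr2:71583673-71696473, plus strand), the alpha subunit of the main laminin receptors, averaged 16.8%. It was 11.5, 8.36, 12.1 and 9.06% covered in the hindbrains, 38.6 and 19.97% in the hearts, 17.9 and 24.65% in the carcasses and 9.43% in the liver, with WT values from 0 to 1.48%.

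Below them lay Itgav, the alpha-v subunit itself, at 12.2%, and of its other beta partners Itgb6 at 13.7% and Itgb3 at 13.1%, while the partners Itgb1 and Itgb8 were far less covered, at 4.76 and 2.69%. The platelet subunit Itga2b averaged 10.4%, the collagen receptor subunits Itga11, Itga1, Itga2 and Itga10 averaged 10.05, 9.51, 7.45 and 6.42%, and the laminin receptor subunits Itga3 and Itga7 averaged 6.25 and 5.58%. Of the leukocyte subunits, Itgad averaged 6.84%, Itgal 4.70%, Itgae 4.64%, Itgam 3.89% and Itgax 3.69%, and of their beta partners Itgb2 averaged 8.45% and Itgb7 6.07%. Itgam, Itgax and Itgad lie next to each other on chromosome 7, with Itgam and Itgax only 1.39 kb apart, so their windows overlap and share peaks there. Itgb4, the partner of Itga6 in hemidesmosomes, averaged 8.05%, and Itga8, which binds nephronectin with Itgb1, 4.42%. The members with the least coverage were the fibronectin receptor subunit Itga5 at 3.04%, Itgb8, Lama2, Itga4 at 2.30% and Itgb2l at 1.19%. Itga5 had peaks in only 2 of the 9 Tdg null libraries and Itgb2l in 4. In all, 13 members have another protein-coding gene within their window.

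**Figure D1:**
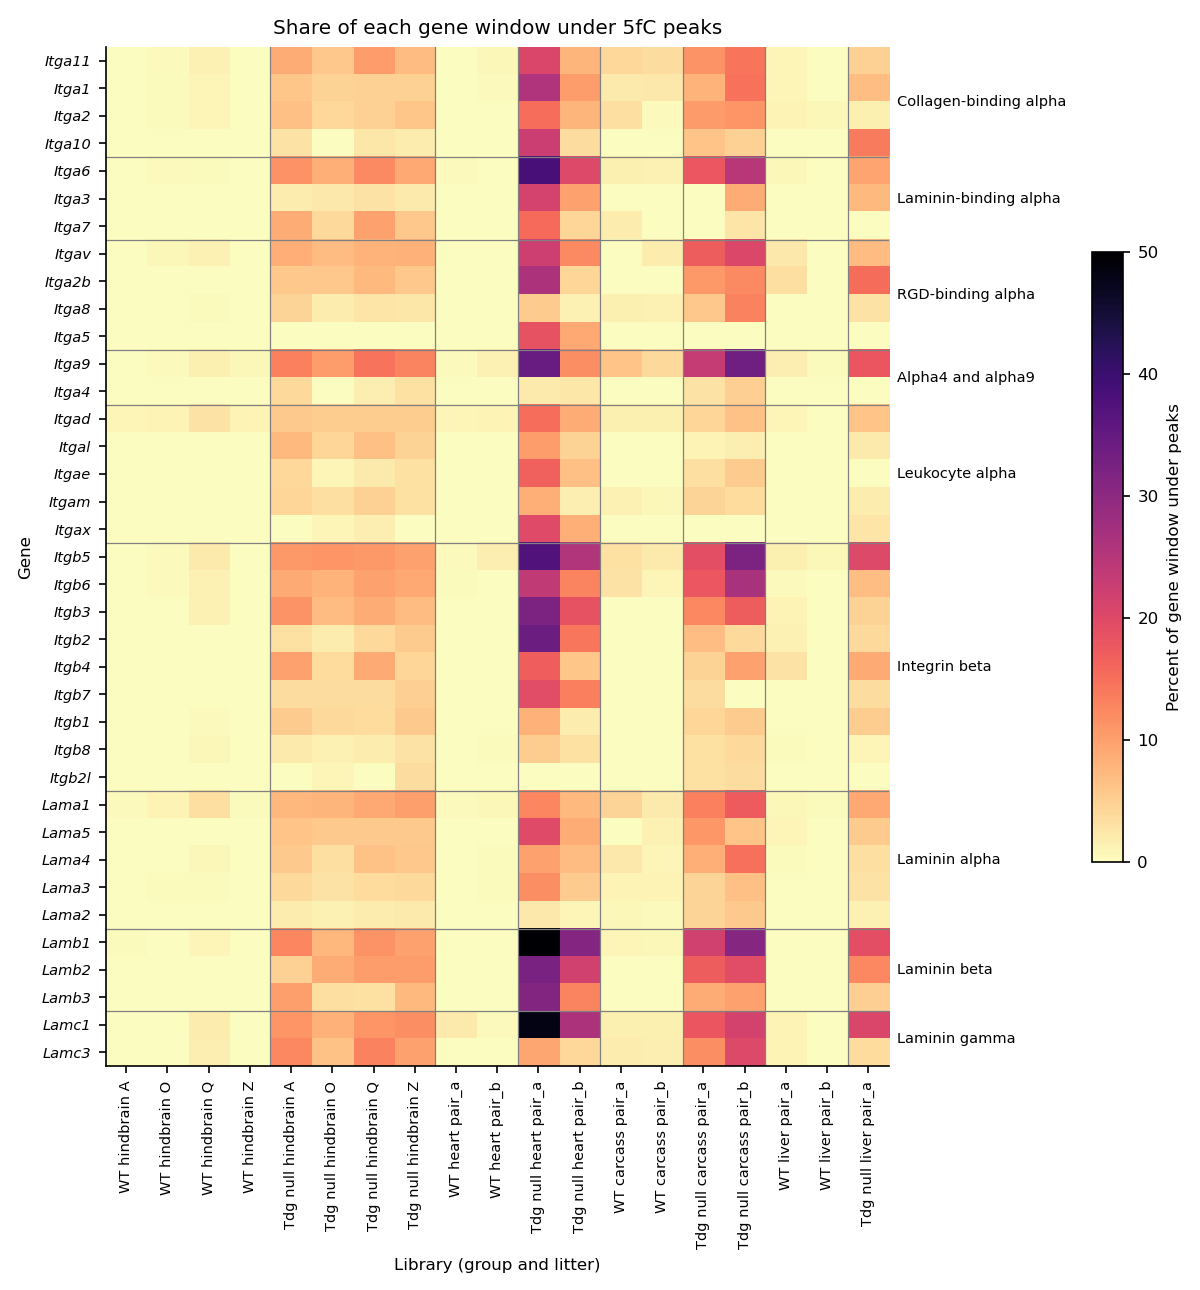
Percent of each member's window (gene body plus 1 kb on either side) under 5fC peaks, with 37 of the 38 members as rows, ordered by role, and 19 libraries as columns (the Tdg null liver of pair_b is not drawn). Lamb1 and Lamc1 are darkest in the Tdg null heart of pair_a, at 49.7 and 48.2%, and WT columns are pale throughout.

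Grouped by what the proteins do, laminin beta and gamma chains stood above the other groups in heart in summed relative coverage. The 3 laminin beta genes together stood at 1.91 ± 0.271 (SD, n = 4) times all genes in Tdg null hindbrain, with means of 3.70 in heart and 2.26 in carcass (2 libraries each) and 3.04 in the single liver. The 3 gamma genes stood at 2.28 ± 0.161, 3.10, 2.17 and 3.53 in the same order. The 5 alpha genes stood at 0.780 ± 0.0333, 0.588, 0.828 and 0.630, below the level of all genes in each of these group means. Among integrins, the laminin-binding alpha subunits stood at 1.86 ± 0.269, 2.63, 1.72 and 1.74, and the beta subunits at 1.54 ± 0.109, 2.03, 1.64 and 1.82. Itga4 and Itga9 together stood at 2.36 ± 0.133, 1.97, 2.69 and 3.25, which rests on Itga9. The collagen-binding subunits stood at 1.31 ± 0.112, 1.59, 1.31 and 1.17 and the RGD-binding subunits at 0.939 ± 0.121, 0.906, 1.29 and 0.9996. Leukocyte subunits had a value of 0.864 ± 0.107 in hindbrain and 1.01 in heart, and the lowest of all groups in carcass, 0.413. These sums weight long genes most, and Lama2 makes up 52.5% of the laminin alpha windows. Lama2 sets the direction there, since the other 4 alpha genes together, a split chosen after seeing the data, stood at 1.195 ± 0.0477 in hindbrain, 1.06 in heart, 1.10 in carcass and 1.03 in liver.

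**Figure D2:**
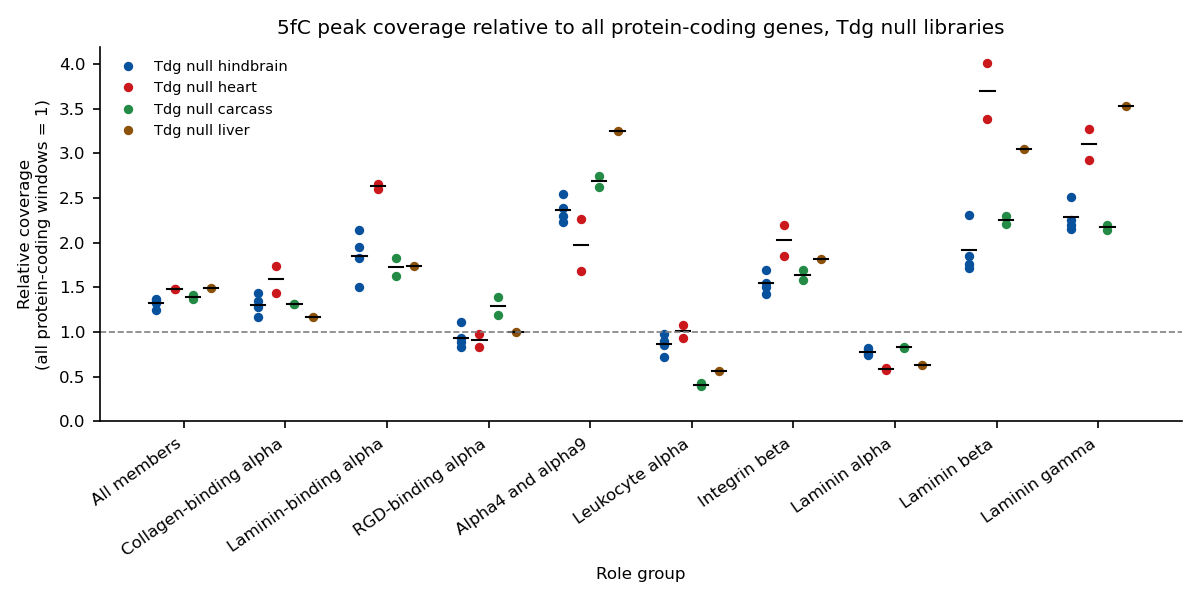
Relative coverage (percent of bases under peaks divided by the percent over all protein-coding windows of the library) of the 9 role groups, 1 point per Tdg null library, with bars for group means and a line at 1, the level of all genes. Laminin beta and gamma lie above 1 in all 9 libraries and laminin alpha lies below 1 in all 9, where its longest gene Lama2 sets the direction.

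The first comparison asked how loss of TDG changed peaks over these genes within a tissue. In hindbrain, limma called 33 of 33 members tested higher in Tdg null embryos, where 89.8% of all genes tested were called higher and 0.0434% lower. The lowest Tdg null library lay above the highest WT library for 32 of these 33, the exception being Itga4, and for 79.3% of all genes tested. Lamb2 was listed at 0 in all 4 WT hindbrains and averaged 8.49 ± 2.61% (SD, n = 4) in Tdg null hindbrains, with an adjusted p of 3.1e-06. Itga6 averaged 0.196% in WT and 10.3% in Tdg null hindbrain, a difference of 3.24 ± 0.19 (SE) on the log2(percent + 1) scale with an adjusted p of 1.1e-06, and all 4 Tdg null values lay above all 4 WT values. Lamb1 averaged 0.301% and 10.3%, a difference of 3.15 ± 0.25 with an adjusted p of 7.3e-06, and once scaled to all protein-coding windows it was not called (2.01, adjusted p = 0.24). Itga10, Itga5, Itgax, Itgb2l and Lama2 averaged under 1% over the 8 libraries and were not tested. Genes could pass that filter through the Tdg null libraries alone, so the count describes the members tested and is close to the share of all genes, and the p of a gene at 0 or under 1% in WT, which covers those named here, is no independent support.

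In heart, 37 of 37 members tested were called higher in Tdg null embryos, where 76.9% of all genes tested were called higher and 0.166% lower, and both Tdg null hearts lay above both WT hearts for all 37, as they did for 80.2% of all genes tested. Lamb1, Lamb2 and Itgb3 (a subunit of the platelet and vitronectin receptors) were listed at 0 in both WT hearts. Lamb1 was 49.7 and 31.0% covered in the Tdg null hearts, Lamb2 32.05 and 21.8%, and Itgb3 32.0 and 18.5%, with limma adjusted p of 0.00013, 0.0001 and 0.00018. Itga6 was 0.436 and 0% covered in WT hearts and 38.6 and 19.97% in Tdg null hearts, a difference of 4.59 ± 0.40 with an adjusted p of 0.00033, and once scaled it was not called (2.51, adjusted p = 0.25). These 4 genes reached the filter through the Tdg null libraries, so their p is no independent support. The Tdg null heart of pair_a held 254319 peaks and that of pair_b 126531, and every one of these genes was more covered in the first. Itgb2l had no peak in any heart and was not tested.

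In carcass, 31 of 37 members tested were called higher and none lower, where 62.4% of all genes tested were called higher and 0.374% lower. The 6 not called were Itga3, Itga5, Itga7, Itgb7, Itgam and Itgax, with adjusted p from 0.11 to 1, and of these Itga5 and Itgax were listed at 0 in all 4 carcasses. Both Tdg null carcasses lay above both WT carcasses for 32 of 37, against 75.0% of all genes tested. Lamb2, Itgb3 and Itga2b were listed at 0 in both WT carcasses. In the Tdg null carcasses Lamb2 was 17.1 and 19.4% covered, Itgb3 12.4 and 17.1%, and Itga2b 10.6 and 12.2%, with limma adjusted p of 0.00024, 0.00056 and 0.0099, under the same limit. Lamb1 was 0.904 and 0.602% covered in WT and 21.7 and 30.7% in Tdg null carcasses, a difference of 3.94 ± 0.32 with an adjusted p of 0.00055, again under that limit. Without the Tdg null carcass of pair_b the count was 19. Liver had only 1 usable Tdg null library and was not tested, and its value lay above both WT livers for Lamb1 (18.97 against 0 and 0%) and Lamc1 (20.6 against 1.12 and 0%).

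The median difference over the members tested was 2.67 in hindbrain, 3.56 in heart and 2.29 in carcass on the log2(percent + 1) scale, beside 2.48, 3.08 and 2.15 over all genes tested. Members listed at 0 in every WT library of the tissue numbered 14, 23 and 16 of those tested, and for them the fitted value depends on the pseudocount.

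Since most genes were called higher, the same comparisons were also made on relative coverage. Scaled this way, limma called 20 members higher and 2 lower in Tdg null hindbrain, where 62.3% of all genes tested were called higher and 0.973% lower. It called 22 higher and 2 lower in heart (53.4% and 2.27% of all genes) and 12 higher and 1 lower in carcass (28.3% and 4.55%). The median difference on this scale was 2.71, 3.02 and 0.69 over members in hindbrain, heart and carcass. Over all genes tested it was 2.90, 2.77 and 1.05, so most genes still lay higher after scaling. Genes listed at 0 in WT are held at the pseudocount on this scale too, so a call of higher for them is no independent support. The members called lower were Lama1 and the leukocyte subunit Itgad. Lama1 differed by -1.92 ± 0.54 in hindbrain (adjusted p = 0.018) and -1.69 ± 0.42 in heart (adjusted p = 0.02), and Itgad by -3.17 ± 0.78 in hindbrain (adjusted p = 0.0092), -2.41 ± 0.26 in heart (adjusted p = 0.0007) and -1.15 ± 0.26 in carcass (adjusted p = 0.024), on the log2(relative coverage + 0.1) scale. These were the same genes in which a short stretch was under peaks of all 4 WT hindbrains, both WT hearts and all 4 Tdg null hindbrains, and of no Tdg null heart and no carcass or liver of either genotype.

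Both of these stretches are tandem repeats within introns. The Lama1 stretch lies in intron 5, 44.2 kb from the gene start. The Itgad stretch is shown because the repeat can be read in it, as its central 200 bases on the plus strand of NCBIM37 (mm9), in lower case with CpG in capitals. It (chr7:135331101-135331500) lies in intron 13, 33.4 kb from the gene start, and the bases printed are chr7:135331201-135331400. This sequence was chosen after its values were seen.
Itgad intron 13: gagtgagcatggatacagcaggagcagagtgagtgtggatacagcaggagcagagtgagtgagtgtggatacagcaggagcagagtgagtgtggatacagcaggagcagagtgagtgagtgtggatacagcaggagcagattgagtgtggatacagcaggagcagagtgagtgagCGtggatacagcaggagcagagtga

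In the Itgad stretch 79.5% of bases equal the base 30 positions on, and the 200 bases printed hold 1 CpG. In the Lama1 stretch 76.8% of bases equal the base 12 positions on. Stretches of at least 200 bp under all 4 Tdg null hindbrains and no other Tdg null library numbered 7 in members, and these 2 were the ones with a self-match of at least 70% at a shift of up to 60 bases. Over all protein-coding windows 22 of 1750 such stretches (1.26%) passed this mark. When both stretches were left out of their windows, an alternative chosen after seeing the data, neither gene was called lower. In carcass no library has a peak in either stretch, so there the difference of Itgad stayed at -1.15, and its SE rose from 0.26 to 1.22 in the fit that carcass shares with heart. Lama1 then differed by 0.10 in hindbrain (limma adjusted p = 0.95) and -0.21 in heart (adjusted p = 0.86), and Itgad by -0.06 (adjusted p = 0.97) and 1.95 (adjusted p = 0.25), with an adjusted p of 0.59 in carcass. The members called higher numbered 20, 22 and 12, with 0 lower, beside 62.3, 53.4 and 28.3% of all genes tested called higher and 0.956, 2.26 and 4.54% lower. No reads were used here, so the part that mapping of reads to such repeats has in these peaks, and in the calls of Lama1 and Itgad, was not tested.

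**Figure D3:**
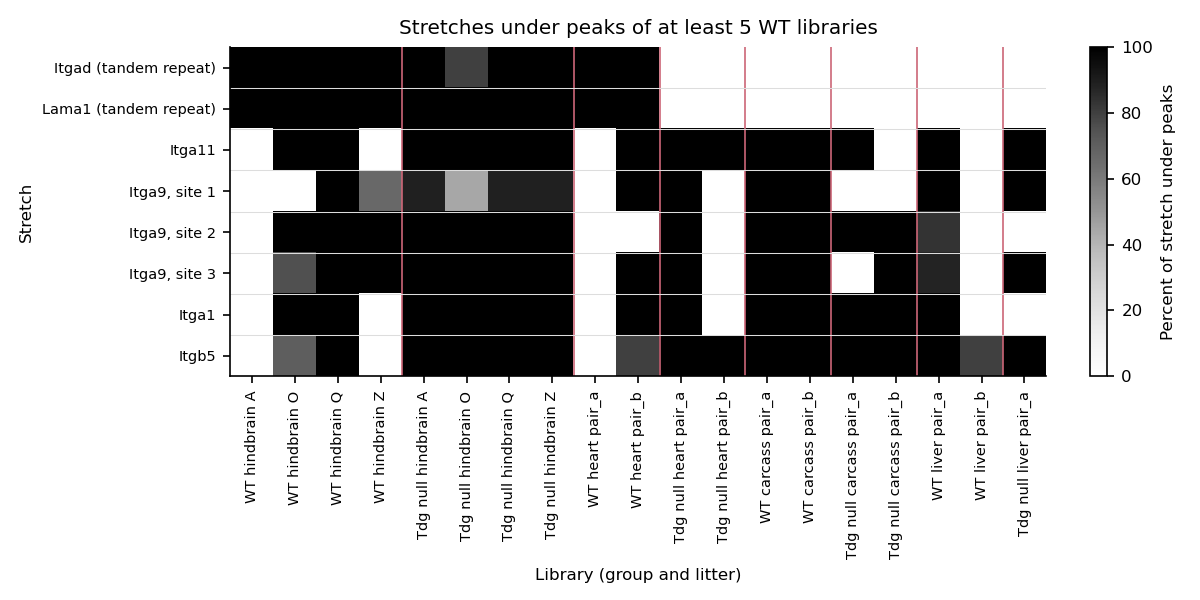
Percent of each stretch under peaks (white 0, black 100), with the 8 stretches of the members under peaks of at least 5 of 10 WT libraries as rows and 19 libraries as columns. The stretches in Itgad and Lama1 are dark in hindbrain of both genotypes and WT heart and white in Tdg null heart, carcass and liver, while the one in Itgb5 is dark in all 9 Tdg null libraries.

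Of the stretches under peaks of at least 5 of 10 WT libraries, 8 lay in members, which is 2.205 per Mb against 0.909 per Mb over all genes. Itga9 held 3 of them, and Itgad, Itga11, Itga1, Itgb5 and Lama1 held 1 each. The longest, 1000 bp in Itgb5, was under peaks of 7 WT and all 9 Tdg null libraries and made up 43.15% of the WT peak bases of the gene against 4.215% of the Tdg null ones. The one in Itgad made up 46.9% against 5.81%, the one in Lama1 13.95% against 1.34%, the one in Itga11 25.6% against 4.09%, the one in Itga1 18.4% against 1.68%, and the 3 in Itga9 10.45, 7.17 and 10.9%. None of these 8 touched a CpG island. These stretches were chosen for their WT peaks, and the Tdg null libraries have many more peak bases in each gene, so the shares are given as a description.

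A further question was whether the tissues differ in where they carry 5fC once the number of peaks is taken into account. The 3 comparisons between Tdg null tissues used relative coverage in 1 limma fit of 8 libraries, so they share libraries and are not independent of one another. All 38 members passed the filter of at least 1% mean coverage, Itga5 and Itgax through the hearts alone. In hindbrain against heart, 3 members were called higher in hindbrain and 6 lower, where 13.3% and 13.1% of all genes tested were called in these directions. The median difference was -0.14 over members and -0.08 over all genes on the log2 scale.

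Lamc3, a laminin gamma chain found in brain, retina and other tissues, was 2.63, 1.80, 2.77 and 2.05 times the level of all genes in the 4 Tdg null hindbrains and 0.764 and 0.667 times in the 2 hearts. The groups did not overlap, and the difference was 1.55 ± 0.21 (SE) on the log2(relative coverage + 0.1) scale with a limma adjusted p of 0.0035. Lama2 was 0.399, 0.363, 0.408 and 0.446 times in the hindbrains and 0.182 and 0.142 times in the hearts (0.95 ± 0.25, adjusted p = 0.035), a call that held in 10 of 20 alternatives (adjusted p from 0.026 to 0.67). Lama1 was 1.60, 2.19, 1.94 and 2.09 times in the hindbrains and 1.04 and 1.24 times in the hearts (0.72 ± 0.17, adjusted p = 0.023). All 3 genes called higher in hindbrain were laminin chains, but 1 was called without the Tdg null hindbrain of litter O, of litter Q or of litter Z, and on the unscaled percent Lama1 turned to -0.16 (adjusted p = 0.68).

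Itga5 was listed at 0 in all 4 hindbrains and was 1.51 and 1.53 times the level of all genes in the hearts, where 18.4 and 8.99% of its window was covered (adjusted p = 0.00015). Itgax was 0, 0.244, 0.372 and 0 times in the hindbrains and 1.62 and 1.40 times in the hearts (adjusted p = 0.028). Both passed the filter through the group in which they are high, so their p is no independent support. Outside the heart Itga5 had no peak in any Tdg null library and Itgax had 2 peaks over the 4 hindbrains, none in carcass and 1 in liver. Itgb2, the shared beta subunit of leukocyte integrins, was 0.623, 0.528, 0.804 and 1.12 times in the hindbrains and 2.78 and 2.41 times in the hearts (-1.68 ± 0.39, adjusted p = 0.023). Lamb1 was 2.68, 2.13, 2.43 and 2.02 times in the hindbrains and 4.08 and 5.28 times in the hearts (-0.98 ± 0.17, adjusted p = 0.0081). Lamc1 and the collagen receptor subunit Itga1 were also lower in hindbrain, by -0.80 (adjusted p = 0.005) and -0.70 (adjusted p = 0.037). For each of these 6 genes both hearts lay above all 4 hindbrains. Of 20 alternatives, the call held in 20 for Lamb1, 19 for Lamc1, 18 for Itga5, 16 for Itgb2 and 12 each for Itgax and Itga1, and of those higher in hindbrain in 17 for Lamc3 and 13 for Lama1. The Itga5 difference of -4.02 shrank to as little as -0.89 across them (adjusted p up to 0.26).

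The split between directions depended on the scaling. On the unscaled percent, 0 members were called higher in hindbrain and 14 lower, and scaled to the whole genome 1 and 11, while the median of all genes moved from -0.08 to -0.84 and -0.31. Without the Tdg null hindbrain of litter Z the count was 5, without the Tdg null heart of pair_b it was 5, and after thinning all libraries to the same number of peaks it was 1.

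In hindbrain against carcass, 2 members were called higher in hindbrain and 0 lower, where 3.71% and 1.59% of all genes tested were called, and 6 members had an unadjusted p under 0.05. Itga7, the laminin receptor subunit of muscle, was 1.84, 1.07, 2.11 and 1.19 times the level of all genes in the hindbrains and 0 and 0.265 times in the carcasses (3.06 ± 0.57, limma adjusted p = 0.033). Itgal, a leukocyte subunit, was 1.56, 1.17, 1.42 and 0.973 times in the hindbrains and 0.136 and 0.172 times in the carcasses (2.43 ± 0.24, adjusted p = 0.0025). The groups did not overlap for either gene. The call of Itga7 held in 9 of 20 alternatives (adjusted p from 0.013 to 0.49) and that of Itgal in 17 of 20. The count fell to 1 without any single Tdg null hindbrain, and to 0 with peaks of at least 600 bp, on the unscaled percent or after thinning.

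In heart against carcass, 8 members were called higher in heart and 2 lower, where 12.9% and 7.23% of all genes tested were called. Itga5 and Itgax were listed at 0 in both carcasses (adjusted p = 0.00044 and 0.021, again with the filter passed through the hearts). Itgb7, the beta partner of Itga4 and Itgae in lymphocytes, was 1.60 and 2.28 times the level of all genes in the hearts and 0.464 and 0 times in the carcasses (3.08 ± 0.75, adjusted p = 0.033). That call held in 12 of 21 alternatives, and the difference was 4.33 without the carcass of pair_a and 1.83 without that of pair_b. Itga7 was 1.27 and 0.707 times in the hearts (2.46 ± 0.66, adjusted p = 0.044), with the carcass values given above, and this call held in 7 of 21 alternatives (adjusted p from 0.015 to 0.38). Itgb2, Itgal, Itgad and Lamc1 were higher in heart by 1.95, 1.86, 1.04 and 0.83, with limma adjusted p of 0.028, 0.0059, 0.021 and 0.009. These calls held in 13, 16, 13 and 18 of 21 alternatives (highest adjusted p of 0.42, 0.28, 0.5 and 0.19). Those of Itga5 and Itgax held in 18 and 15, and the Itga5 difference of 4.02 fell as low as 0.30 (adjusted p up to 0.6).

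Lama2 and Lamc3 were higher in carcass, which holds the trunk and limb tissue. Lama2 was 0.182 and 0.142 times the level of all genes in the hearts and 0.603 and 0.566 times in the carcasses (-1.39 ± 0.29, limma adjusted p = 0.02). Lamc3 was 0.764 and 0.667 times in the hearts and 1.63 and 2.01 times in the carcasses (-1.23 ± 0.25, adjusted p = 0.018). The call held in 15 of 21 alternatives for Lama2 and 14 for Lamc3 (adjusted p up to 0.19 and 0.36). Since the hearts and carcasses were taken from shared embryos, the pairing was also fitted, and a fit of these 4 libraries alone with the litter as a block called 0 of 38 members and 0 genes in all, with 10 members at an unadjusted p under 0.05. With the embryo as a random block across all 8 libraries, 7 members were called higher and 2 lower. The count was 6 without the Tdg null carcass of pair_b, 3 without the Tdg null heart of pair_b, 4 from numbers of peaks per 10 kb, 3 on the unscaled percent and 1 after thinning, and scaled to the whole genome 12 members were higher and 2 lower.

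**Figure D4:**
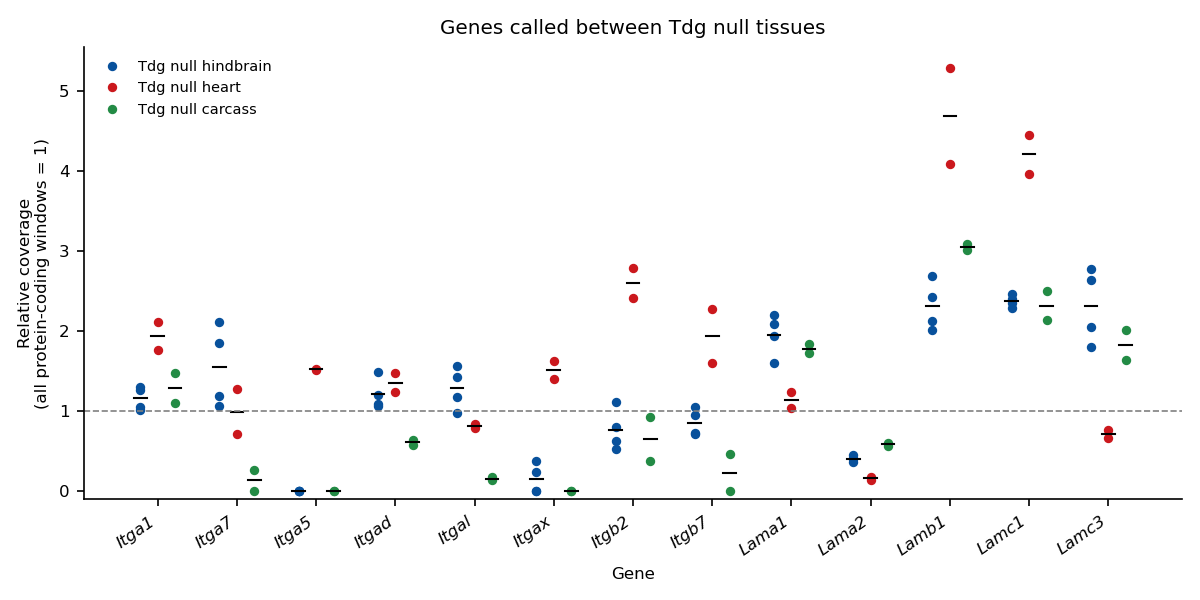
Relative coverage of the members called between Tdg null tissues, 1 point per library, coloured by tissue, with 1 as the level of all protein-coding genes. Itga5 has points above 0 in heart alone among the tissues compared, Lamc3 lies lowest in heart, and among hindbrain, heart and carcass Lamb1 and Lamc1 lie highest in heart.

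Genes that work with integrins and laminins were counted from 2 lists. The 24 focal adhesion genes link integrin tails to actin, and the 21 matrix genes encode other basement membrane proteins and integrin ligands. Higher coverage in Tdg null samples was called for 20 of 20 focal adhesion genes tested in hindbrain, 21 of 24 in heart and 21 of 24 in carcass. Of the matrix genes it was called for 19 of 19, 18 of 19 and 19 of 19. Over all genes tested the share called higher was 89.8, 76.9 and 62.4%. Vtn, which encodes the integrin ligand vitronectin, and Thbs1 (thrombospondin 1) were listed at 0 in WT hindbrain and averaged 26.3 ± 0.955% and 19.3 ± 2.77% (SD, n = 4) in Tdg null hindbrain, with limma adjusted p of 3.2e-08 and 4.3e-08. The adaptor Bcar1 (p130Cas) and the focal adhesion protein Zyx (zyxin) were listed at 0 in WT heart and averaged 50.02 and 47.9% in Tdg null heart, with adjusted p of 0.00025 and 8.1e-05. Thbs1 and Lims2, a partner of integrin-linked kinase, were listed at 0 in WT carcass and averaged 33.5 and 20.7% in Tdg null carcass, with adjusted p of 0.0031 and 0.00086. Genes listed at 0 in the WT libraries of a comparison were named for their large change and could reach the filter through the groups in which they are high, so these p are no independent support.

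Between Tdg null tissues, 1 of 24 focal adhesion genes was called higher and 6 lower in hindbrain than in heart, and 6 of 19 matrix genes higher and 6 lower, beside 13.3% and 13.1% of all genes tested. Vtn moved most, with 26.3% of its window covered in hindbrain, 0 in both hearts and 9.55% in carcass (limma adjusted p of 2.4e-05 for hindbrain against heart). It passed the filter through hindbrain and carcass, where it is high, so the p of Vtn against heart is no independent support in either comparison. Fermt1 (kindlin-1), an integrin activator, was higher in hindbrain by 2.26 ± 0.42 (adjusted p = 0.011). Lims1 and Nid2, a nidogen that links laminin and collagen networks, were lower in hindbrain, each by -1.59 (adjusted p = 0.0032 and 0.012). In hindbrain against carcass, 0 focal adhesion genes were called by limma, with 4 at an unadjusted p under 0.05, and of the 19 matrix genes Vtn alone was called, higher by 2.31 ± 0.21 (adjusted p = 0.0016), beside 3.71% of all genes called higher and 1.59% lower. In heart against carcass, 5 focal adhesion genes were higher and 1 lower, among them Zyx by 1.68 and Lims1 by 1.61 (adjusted p = 0.023 and 0.0068) and Fermt1 by -1.74 (adjusted p = 0.049), and 1 matrix gene was higher and 2 lower, Vtn among the latter (adjusted p = 0.00035). Of all genes tested 12.9% were higher in heart and 7.23% lower. The fit of the 4 heart and carcass libraries alone with the litter as a block called 0 genes in all, so none of these calls held there.

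Within the members, coverage was uneven along the gene. Gene starts within a CpG island, a stretch rich in CpG that is usually unmethylated, numbered 21 of 38 (55.3%, against 51.4% of all genes). In these members the first 500 bp of the gene were 5.16 ± 0.464% (SD, n = 4) covered in Tdg null hindbrain, on average 8.20% in the hearts and 5.13% in the carcasses, and the bases from 1000 to 1500 bp were 15.55 ± 9.12%, 33.5% and 20.55% covered. Over all genes with such starts the values were 1.64, 2.22 and 2.35% in the first bin and 9.78, 15.8 and 13.9% in the second. A dip in the first bin below the second was thus seen in the members and in genes at large. CpG islands in the members' windows were 5.27 ± 2.245% (SD, n = 4) covered in Tdg null hindbrain, close to the 5.86% of the whole windows. They averaged 9.55 and 7.845% in heart and carcass, beside 13.4 and 11.98% over the windows. In the single liver they were 6.635% covered beside 6.54%.

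The 17 members whose start lies outside an island showed no such dip. The 500 bp upstream of the start were 13.9 ± 4.86% covered in Tdg null hindbrain, 40.3% in heart and 19.8% in carcass, against 5.99, 9.64 and 9.01% over all genes with such starts. Exons of the members were 8.38 ± 1.79% covered in Tdg null hindbrain and introns 5.68 ± 0.736%, beside 5.60 and 4.35% over all genes. In heart the members' exons and introns averaged 14.3 and 13.3% and in carcass 13.95 and 11.8%, while in the single liver exons were lower, at 5.66 against 6.64%. Over all genes exons and introns averaged 10.6 and 8.98% in heart, 8.33 and 8.71% in carcass and 4.41% each in liver. Divided into 5 equal parts from the gene start, the members averaged 6.55, 6.07, 5.66, 6.53 and 4.56% in Tdg null hindbrain, so the last part was lowest with no steady fall before it. Over all genes the first and last parts averaged 4.67 and 4.63%. In heart the first and last parts of the members averaged 16.8 and 10.2%, and those of all genes 9.88 and 8.82%.

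**Figure D5:**
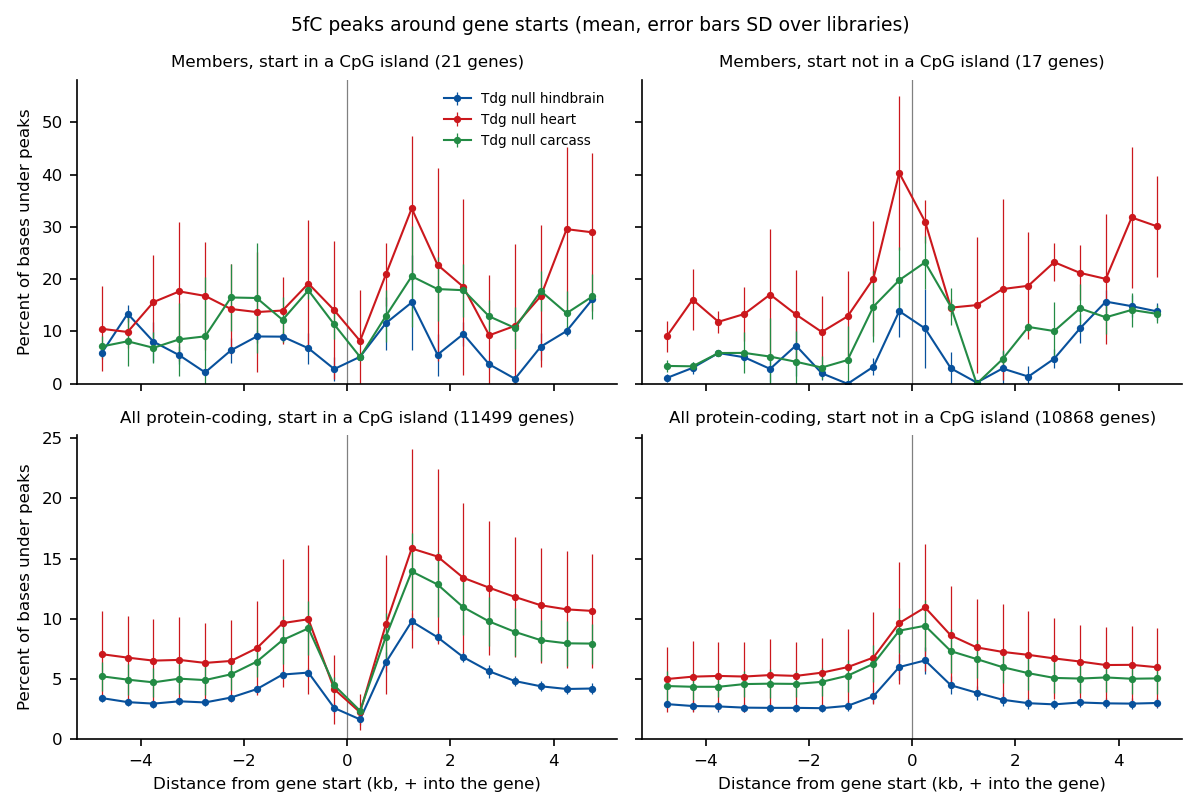
Percent of bases under peaks in bins of 500 bp from 5 kb upstream to 5 kb downstream of the gene start in Tdg null tissues, for starts in a CpG island and outside one, with members in the top row and all protein-coding genes in the bottom row. The rows have different vertical scales, and points are means over libraries with bars for the SD. Over all protein-coding genes, island starts are lowest in the first 500 bp of the gene and starts outside islands are highest there, and the members' curves, over 21 or 17 genes, are rougher.

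Bases under peaks in members were richer in G and C than the rest of their windows. In Tdg null hindbrain they had 48.2% GC and 1.77 CpG per 100 bases, against 43.6% and 0.988 outside peaks. The values over all genes were 48.0% and 1.755 under peaks, close to those of the members. In Tdg null heart the members' peaks had 48.05% GC and 1.60 CpG per 100 bases, in carcass 46.9% and 1.57, and in liver 47.9% and 1.70.

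Stretches of at least 200 bp under peaks of all 9 Tdg null libraries numbered 38, in 16 members, at 10.5 per Mb against 7.11 per Mb over all genes. Itga9 held 6, Lamc1 5, and Itga6 and Itgb5 4 each. Of the 38, 30 lay wholly within introns, 3 lay within 1 kb of the gene start and 19 were under no WT peak. The one under peaks of the most WT libraries, 7, lay in Itgb5. Those that came next are shown as the central 200 bases on the plus strand, with CpG in capitals. They are Lama1 chr17:68116151-68116350 (3 WT libraries, with 58 of the 200 bases exonic) and Itga9 chr9:118647051-118647250 in intron 17 (3 WT libraries).
Lama1, all 9 Tdg null: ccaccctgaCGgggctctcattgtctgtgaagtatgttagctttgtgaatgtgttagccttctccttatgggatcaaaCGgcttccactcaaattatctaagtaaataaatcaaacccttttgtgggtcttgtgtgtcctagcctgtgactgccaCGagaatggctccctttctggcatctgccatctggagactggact
Itga9, all 9 Tdg null: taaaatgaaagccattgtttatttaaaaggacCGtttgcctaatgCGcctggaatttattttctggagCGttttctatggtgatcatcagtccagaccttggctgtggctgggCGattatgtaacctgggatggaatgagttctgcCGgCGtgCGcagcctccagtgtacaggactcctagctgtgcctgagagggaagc

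These hold 3 and 7 CpG in 200 bases at 47 and 49% GC. None of the 38 stretches under peaks of all 9 Tdg null libraries in members is a tandem repeat by the mark used above.

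Stretches set apart by tissue were counted in the same way, except that the heart class left the Tdg null liver out of account. Its stretches may thus also lie under liver peaks. Under both Tdg null hearts and no Tdg null hindbrain or carcass there were 195 in 35 members, 53.75 per Mb against 39.3 per Mb over all genes, led by Itga6 with 20, Lamc1 with 19, Lamb1 with 14 and Itga1 with 13. Under both Tdg null carcasses and no other Tdg null library there were 92 in 20 members, 25.4 per Mb against 19.6, led by Lama2 with 19, Itga9 with 14 and Itgb6 with 8. Under all 4 Tdg null hindbrains and no other Tdg null library there were 7 in 6 members, 1.93 per Mb against 1.70. The hindbrain class needs 4 libraries to agree and the others need 2, and the Tdg null heart of pair_a held the most peaks of all, so these counts are not compared between tissues.

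Some of the longest stretches of these classes show what such a place looks like in sequence. Each is again the central 200 bases on the plus strand. Itgae chr11:72923101-72923300 lies in a heart stretch of 2200 bp, and Itgb6 chr2:60485151-60485350 in intron 12 and Lama4 chr10:38733601-38733800 in intron 3 in carcass stretches of 1700 and 1400 bp, the first the longest of its class and the second equal in length to one in Itga9.
Itgae, heart: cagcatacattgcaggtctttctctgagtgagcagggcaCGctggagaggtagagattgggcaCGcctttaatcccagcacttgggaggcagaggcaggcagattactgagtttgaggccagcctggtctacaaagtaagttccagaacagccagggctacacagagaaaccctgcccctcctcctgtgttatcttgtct
Itgb6, carcass: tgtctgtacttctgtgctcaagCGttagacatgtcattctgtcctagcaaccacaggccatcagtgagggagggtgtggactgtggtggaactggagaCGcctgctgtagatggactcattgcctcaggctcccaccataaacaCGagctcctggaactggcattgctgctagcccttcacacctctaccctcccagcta
Lama4, carcass: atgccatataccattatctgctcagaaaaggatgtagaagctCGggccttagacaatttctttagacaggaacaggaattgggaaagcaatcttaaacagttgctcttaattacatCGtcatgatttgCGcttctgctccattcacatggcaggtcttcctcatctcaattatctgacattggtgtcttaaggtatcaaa

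The bases printed from Itgae hold 2 CpG, and those of Itgb6 and Lama4 hold 3 each. Lama4 was under a peak of 1 WT library at this place and the other 2 under none.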

How the data were processed

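5fC in sonicated DNA of single dissected tissues was tagged with a cleavable biotin probe, captured and sequenced in 20 libraries from 12 embryos. The authors trimmed reads with Trim Galore, aligned them to NCBIM37 (mm9) with Bowtie2 and called peaks in each library on its own with the MACS caller of SeqMonk with 200 bp as the fragment size and a p cutoff of 1e-05. Each deposited line gives where a peak starts and ends, with no score or height, on a grid of 100 bp, and was read as 1-based and inclusive. Use of an input library and removal of duplicates are not given in the sources used here. Peaks on 21 chromosomes were kept. Gene models came from GENCODE vM1 on the same build, and CpG islands were called on its sequence (500 bp windows, at least 55% GC and an observed over expected CpG ratio of at least 0.65).

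Coverage and descriptions were computed with Python 3.11.15, numpy 2.4.6 and pandas 2.3.3, and figures drawn with matplotlib 3.10.9. Genes with a mean of at least 1% covered were fitted with limma 3.58.1 in R 4.3.3 (eBayes with trend), with Benjamini-Hochberg adjustment over all genes tested and calls at an adjusted p under 0.05. Genotypes were compared on log2(percent + 1), hindbrain in a fit of its 8 libraries and heart and carcass in a shared fit of 8. Tdg null tissues were compared on log2(relative coverage + 0.1) in a fit of 8. Replicates are separate embryos. Scripts were tested on simulated data.

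Pairs of WT and Tdg null embryos shared a litter according to the labels and the study's methods. Deviations from the group means within a litter correlated at 0.072, 0.015, -0.038 and -0.056 in hindbrain over 11508 genes. They correlated at -0.053 in heart over 14037 genes and -0.060 in carcass over 12543 genes, filtered on the libraries of that tissue alone. With 2 libraries in a group the value between litters is the same with its sign turned, so these values say little about the pairing. The main fits had no block, and the litter or the embryo as a block was an alternative.

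The members, the role groups and the lists of focal adhesion and matrix genes were chosen with earlier results of these data known. Values in every library are given for 5 of the 6 members with the highest mean over the 9 Tdg null libraries, and in each comparison the called members with the 4 largest changes in each direction are named with their values. One member and some sequences are not reported here, though counts and sums include that member. Of the focal adhesion and matrix genes, the 2 called with the largest change in each direction are named.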

Additional observations from a re-analysis of the deposited data

How the results depend on the processing

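Detection limits every value, since a gene without a peak may hold 5fC below what the caller could detect, and WT libraries with few peaks set most zeros. Depth is unknown, so low depth and low 5fC cannot be told apart behind these zeros. The 33, 37 and 31 members called higher in Tdg null hindbrain, heart and carcass ranged from 30 to 35, 32 to 37 and 19 to 32 when each library was left out, the lowest in carcass being without Tdg null carcass of pair_b. With the litter as a replicate block they were 33, 37 and 29. Scaled to all protein-coding windows the calls in both directions were 22, 24 and 13, and without the tandem repeat stretches as well, which was added after seeing the data, 20, 22 and 12.

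The 9 members called between Tdg null hindbrain and heart ranged from 5 to 11 when each library was left out (5 without hindbrain of litter Z and 5 without heart of pair_b), and were 14 on the unscaled percent, where Lama1 changed sign to -0.16, and 1 after thinning to equal numbers of peaks. The 2 called between hindbrain and carcass ranged from 1 to 3, and were 0 with peaks of at least 600 bp, on the unscaled percent and after thinning, with 4, 17 and 4 members at an unadjusted p under 0.05 by limma. The 10 called between heart and carcass ranged from 3 to 10 (3 without heart and 6 without carcass of pair_b), and were 4 from peaks per 10 kb, 3 on the unscaled percent, 1 after thinning and 0 with the replicate block in 4 libraries, where 10 had an unadjusted p under 0.05. With the embryo as a random replicate block the 3 counts were 9, 2 and 9.

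Relative coverage of the members over 9 Tdg null libraries, 1.395, ranged from 1.382 to 1.413 when each library was left out, and was 1.94 against the whole genome, 1.528 without the 3 longest members and 1.255 with the liver of pair_b included. Over 10 WT libraries, 1.56, the alternatives gave 1.454 to 1.787. The other alternatives run (no flank or a flank of 10 kb, other pseudocounts, no filter, and those above where not named) kept each count within 1.5 times the main value.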

Other observations

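Liver entered no test, since only 1 Tdg null library could be used, and its values for the members are given here. Over all protein-coding windows 4.37% of bases lay under peaks in that library. Lamc1 (20.6%), Itgb5 (20%), Lamb1 (18.97%) and Itga9 (18.02%) led, which are the same 4 genes that led the mean over the 9 Tdg null libraries. Itga2b stood at 15.4%, a subunit found on platelets and their precursors, and the chondrocyte collagen receptor subunit Itga10 at 13.85%. In the Tdg null heart and carcass of the same embryo Itga2b stood at 26.0 and 10.6%, and Itga10 at 22.45 and 6.21%. The 2 WT livers had Itga2b at 3.19 and 0% and Itga10 at 0 in both. Members listed at 0 in the Tdg null liver were Itga4, Itga5, Itga7, Itgae and Itgb2l, and of these Itga5 and Itgb2l were among the members with the fewest Tdg null libraries under a peak. The difference from the other tissues was not tested.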
